A study of Gallus gallus with 6 samples.

Results

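The nucleosome is the repeating unit of chromatin: DNA wound around a core of the histones H2A, H2B, H3 and H4, with the linker histone H1 bound where the DNA enters and leaves. Most histone genes are replication-dependent. They lie in dense clusters, are transcribed mainly while DNA is copied, and give messenger RNAs that end in a stem-loop in place of a poly(A) tail. Variant histone genes lie mostly outside the clusters, give polyadenylated messages and supply histones also in cells that no longer divide, such as the nuclei of muscle fibres.

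The members were the genes whose symbol starts with HIST or whose gene ontology terms hold the exact term nucleosome, 52 of the 18239 genes in the deposited table. By their symbols, 29 were chosen by the first criterion, all of which also carried the term, and 23 by the term alone. Sorted by name, 30 were replication-dependent histone genes, 10 were variant histone genes, 6 were loci without a histone name, and 6 were genes that do not encode histones. The sorting used gene names and the table's own description (LOC427882 is described there as a histone H1), not the sequence of the message end. All 52 gene numbers matched the RefSeq gene table.

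The libraries were made from total RNA of 2 skeletal muscles of 180-day-old broiler chickens, Gallus gallus, taken after slaughter: the soleus, a leg muscle (3 libraries), and the pectoralis major, the breast muscle (3 libraries). The labels name broilers as the breed, give no sex and no treatment for either group, and do not tie libraries to birds, so the p-values measure the spread between these libraries. The series compares muscles of very different fibre type content. Levels are FPKM, in which fragments are scaled by gene length and library total, which allows levels of different genes to be set side by side. Each difference is the soleus mean of log2(FPKM + 1) less the pectoralis major mean. The added 1 makes the change of genes of low level look smaller than it is. Differences carry limma's standard error (SE) and its p adjusted by Benjamini-Hochberg over all tested genes, and are called at an adjusted p under 0.05.

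Library totals, found by reading the FPKM values as whole numbers of fragments, were 36309597 to 39079981 fragments. Mitochondrially encoded genes took 31.4% to 38.0% of summed FPKM in soleus and 13.1% to 15.8% in pectoralis major, which by itself lowers all other FPKM in soleus. The 5 fast fibre markers summed to 10418 to 13325 FPKM in soleus and 40179 to 44913 FPKM in pectoralis major, which by itself lowers all other FPKM in pectoralis major. Slow fibre markers were higher in soleus for 5 of 5 genes and fast fibre markers lower for 5 of 5. These lists were chosen with earlier results of these data known, so they are no independent check of the labels. Over the 9616 tested genes the median difference was 0.26, with 3844 genes called higher and 1670 lower. Under median-ratio scaling the median was -0.05 with 1952 higher and 2854 lower, and with the mitochondrial genes left out of the totals it was 0.45 with 5275 higher and 1158 lower.

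Most replication-dependent histone genes were lower in soleus than in pectoralis major, while the summed FPKM of the named variant histone genes, as deposited, overlapped between the muscles. Of the 52 members, 37 reached the filter of 1 FPKM in at least 3 libraries and were tested. Of these 37, 23 were called lower in soleus, where 17.4% of all tested genes were called lower. The single member called higher was H3F3B, where 40.0% of all tested genes were called higher. Among replication-dependent members 20 of 30 were tested, 15 were called lower and none higher, and the median difference was -1.12. Among variant members 8 of 10 were tested, 1 was called lower and 1 higher, and the median was -0.06. That count moved with the scaling: under median-ratio scaling 4 variant members were called lower and none higher, and with the mitochondrial genes left out 1 was lower and 2 were higher. HIST1H111R, LOC100857439 and LOC121106438 reached the filter only through the pectoralis major libraries, so a difference in that direction was a condition of their being tested. For 12 of the 20 tested replication-dependent members the call came with a difference of at least 2-fold in FPKM + 1, against 5.50% of all tested genes. In 14 of the 20 every soleus library lay below every pectoralis major library, against 19.9% of all tested genes, and in 18 of the 20 soleus was the lower in each of the 3 same-numbered pairs, against 24.6%. With the replicate number as a block 19 of the 20 were called lower (background 19.5%), under median-ratio scaling 18 of the 19 tested there (background 30.1%), and with the mitochondrial genes left out 14 of the 20 (background 11.6%). The sign was negative for 19 of the 20 as deposited and with the mitochondrial genes left out, and for 19 of 19 under median-ratio scaling, where HIST1H2A4L1 was not tested. Over all kinds, 18 members were called lower without a filter (background 8.58%). Members called higher numbered 2 with the replicate block (background 43.8%), 0 under median-ratio scaling (background 20.6%), 3 with the mitochondrial genes left out (background 52.8%) and 3 without a filter (background 23.7%).

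**Figure D1:**
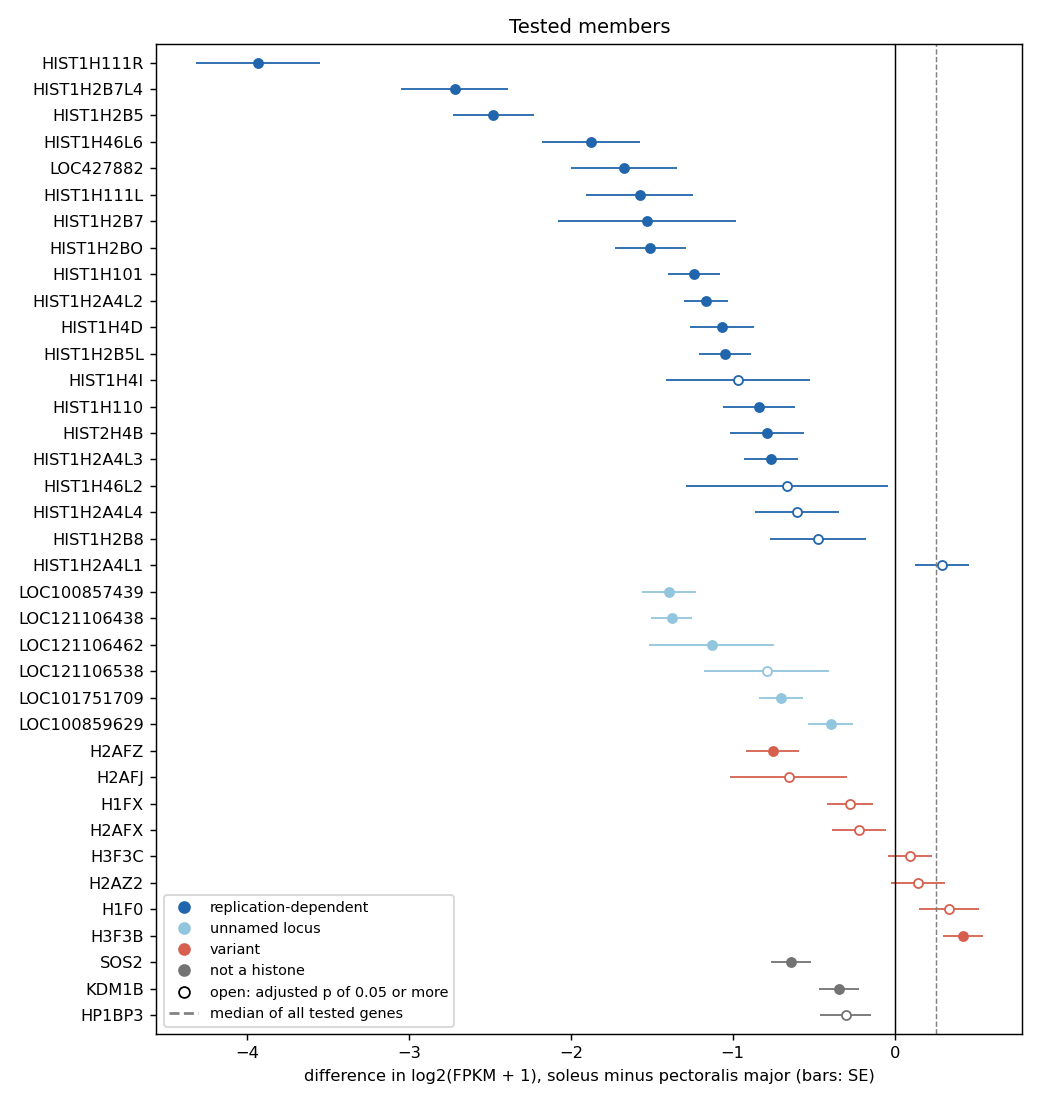
Difference in log2(FPKM + 1), soleus minus pectoralis major, for the 37 tested members, with bars of 1 SE, coloured by kind. Filled points have an adjusted p under 0.05 and the dashed line is the median of all tested genes, 0.26. Replication-dependent members reach from 0.29 down to -3.93, and variant members lie between -0.75 and 0.42.

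The summed level shows the same contrast and depends less on how fragments of near-identical copies were divided among genes. It still depends on gene length, which ran from 390 bases (HIST1H2A4L1) to 3475 bases (HIST1H2B5L). It leaves out the unnamed loci with histone terms and any shared reads dropped in counting. Of these loci, LOC101751709 (means of 46.9 FPKM in soleus and 76.5 FPKM in pectoralis major) shares the terms of a variant gene. So does LOC100859629 (94.9 FPKM and 125.2 FPKM). Both were called lower in soleus, LOC100859629 not in every fit, and the variant sum does not hold them. Summed over the 30 replication-dependent members, the soleus libraries in order of number held 145.7, 183.5 and 180.9 FPKM and those of pectoralis major held 309.2, 453.6 and 602.5 FPKM. The groups did not overlap, and the pectoralis major libraries differed by more among themselves than the soleus libraries did. The means were 170.0 ± 21.1 FPKM in soleus and 455.1 ± 146.6 FPKM in pectoralis major (SD, n = 3 each), a ratio of 2.68. The 10 variant members summed to 567.4, 563.2 and 484.6 FPKM in soleus and to 480.1, 595.2 and 557.4 FPKM in pectoralis major. These groups overlapped, with means of 538.4 ± 46.7 and 544.2 ± 58.7 FPKM (SD, n = 3 each). The log2 ratio of the variant sums, -0.02 as deposited, was -0.40 under median-ratio scaling and 0.21 with the mitochondrial genes left out, so its sign changed with the scaling. Replication-dependent genes made up 20.4%, 24.6% and 27.2% of the FPKM of the named histone genes in the soleus libraries in order of number, and 39.2%, 43.2% and 51.9% of it in those of pectoralis major. This share does not depend on the scaling of a library. In bulk tissue, fewer cells of a type and less RNA per cell cannot be told apart. Replication-dependent messages without a poly(A) tail are seen or missed depending on how RNA was selected for the libraries, which is not given in the sources used here.

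**Figure D2:**
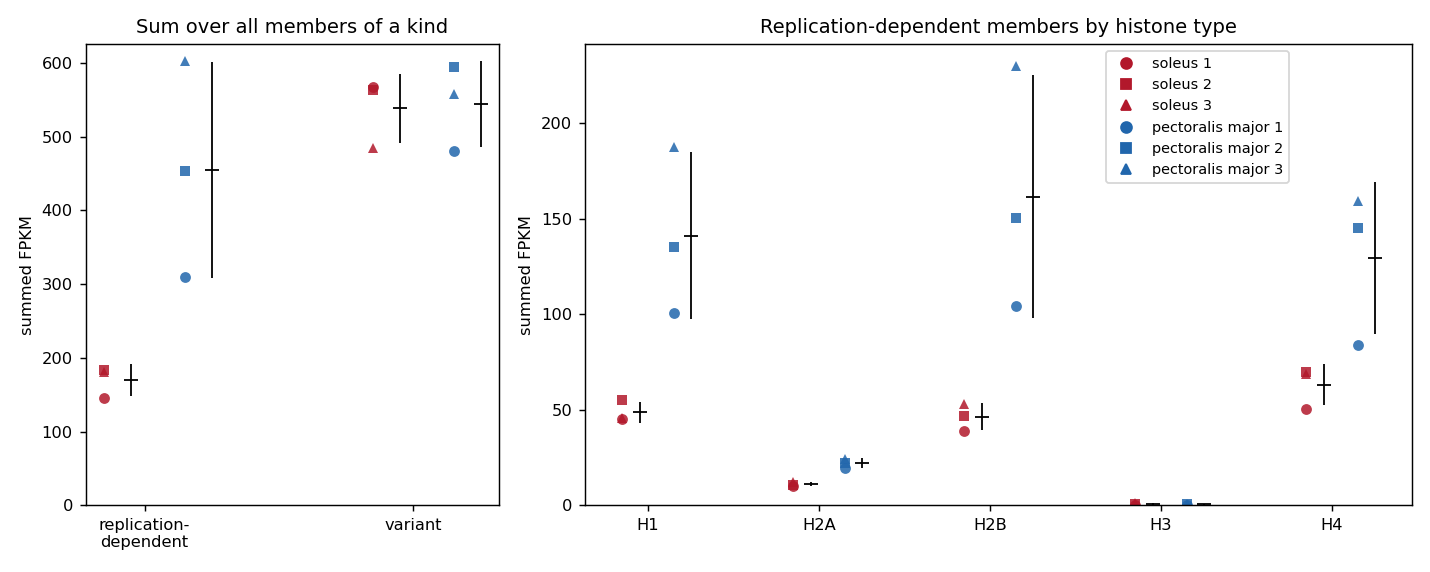
Summed FPKM per library (points, linear axis from 0) over replication-dependent and variant members, left, and over the replication-dependent members of each histone type, right; bars are the mean ± SD of 3 libraries. All pectoralis major libraries lie above all soleus libraries for replication-dependent H1, H2A, H2B and H4, while the variant sums overlap.

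Linker histones H1 showed the largest single difference. All 5 tested replication-dependent members were called lower in soleus (background 17.4%), with a median difference of -1.57. The chicken has several H1 subtypes, which differ in their tails and bind the linker DNA with differing strength. HIST1H111R held 0.664, 0.895 and 0.759 FPKM in soleus and 15.3, 20.8 and 54.7 FPKM in pectoralis major, in order of library number as in all triplets that follow. It was low in every soleus library, at 19, 26 and 22 fragments, against 413, 573 and 1509 fragments in pectoralis major. The difference was -3.93 (SE 0.38, limma adjusted p = 9.56e-05), and the ratio of mean FPKM was 39.2, or 23.4 without pectoralis major library 3. It reached the filter only through pectoralis major, so a lower level in soleus was a condition of its test. With any pectoralis major library left out it no longer reached the filter and was not tested.

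HIST1H101 was the H1 gene of highest level in pectoralis major, with 19.9, 26.4 and 22.5 FPKM in soleus and 45.9, 63.1 and 57.7 FPKM in pectoralis major. The muscles were well apart (difference -1.24, SE 0.16, limma adjusted p = 0.000409). HIST1H110 stood at a like level in soleus, with 21.1, 25.1 and 20.9 FPKM, and at 28.4, 42.9 and 54.8 FPKM in pectoralis major. Its groups did not overlap either (difference -0.84, SE 0.22, limma adjusted p = 0.0113).

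The 2 other H1 genes called lower were of low level. HIST1H111L held 2.06, 0.997 and 0.566 FPKM in soleus and 7.33, 2.84 and 6.89 FPKM in pectoralis major (difference -1.57, SE 0.33, limma adjusted p = 0.00406). LOC427882 held 1.63, 1.48 and 0.740 FPKM in soleus and 3.80, 5.17 and 11.5 FPKM in pectoralis major (difference -1.67, SE 0.33, limma adjusted p = 0.00296). Its ratio of mean FPKM was 5.30, or 3.49 without pectoralis major library 3. HIST1H103 was under the filter, with 1, 10 and 2 fragments in soleus and 4, 8 and 59 in pectoralis major, and pectoralis major library 3 held more fragments than the other 5 libraries together.

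Variant H1 genes were not called in either direction as deposited, and both were called under some alternative. H1FX, a linker histone variant of most tissues, held 28.8, 35.9 and 27.5 FPKM in soleus and 34.0, 40.1 and 37.6 FPKM in pectoralis major (difference -0.27, SE 0.14, limma adjusted p = 0.128), and it was called lower under median-ratio scaling (-0.65, adjusted p = 0.00592). H1F0 carries the synonym H5, the linker histone of the nucleated red cells of birds. It held 17.3, 26.0 and 22.7 FPKM in soleus and 15.5, 21.1 and 15.0 FPKM in pectoralis major, overlapping between muscles (difference 0.34, SE 0.19, limma adjusted p = 0.153). With the replicate block it was called higher (adjusted p = 0.0491), as it was with the mitochondrial genes left out (0.55, adjusted p = 0.0277), while under median-ratio scaling its difference was -0.03. Of 7 red cell markers found, 5 were tested and none was called (limma adjusted p = 0.518 for HBA1, the alpha globin gene), while with the replicate block 2 of the 5 were called higher. HBA1 held 214.4, 512.4 and 567.7 FPKM in soleus and 227.1, 429.9 and 347.7 FPKM in pectoralis major, lowest in library 1 of both muscles, as was the sum of the red cell markers (432 FPKM in soleus library 1 and 410 FPKM in pectoralis major library 1). H1F0 was also lowest in library 1 in soleus but not in pectoralis major, and the part of red cells in its level was not tested. Replication-dependent genes gave 48.1% ± 1.34 of H1 FPKM in soleus and 71.3% ± 5.94 in pectoralis major (SD, n = 3 each), and the 3 libraries of each muscle did not overlap with those of the other.

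H2B pairs with H2A to form the dimers on either face of the nucleosome, and 6 of 6 replication-dependent H2B genes were tested. Of these, 5 were called lower in soleus (background 17.4%), each by at least 2-fold (background 5.50%), and the median difference was -1.52. HIST1H2B7L4 held 1.94, 3.30 and 2.98 FPKM in soleus and 15.2, 19.6 and 42.0 FPKM in pectoralis major (difference -2.72, SE 0.33, limma adjusted p = 0.000286). HIST1H2B5 held 2.39, 3.50 and 2.69 FPKM in soleus and 14.0, 19.9 and 30.3 FPKM in pectoralis major (difference -2.48, SE 0.25, limma adjusted p = 0.000116). Both were far above the soleus range in every pectoralis major library, and both were highest in library 3. HIST1H2BO, the H2B gene of highest level, held 21.2, 22.7 and 27.0 FPKM in soleus and 53.8, 60.9 and 99.2 FPKM in pectoralis major (difference -1.51, SE 0.22, limma adjusted p = 0.000741). The annotated span of HIST1H2BO overlaps that of HIST1H2A4L2, and whether counting used strand is not given in the sources used here, so reads of these 2 genes may not be separable.

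HIST1H2B5L was sorted as replication-dependent by its symbol alone. It is the only such member outside the main cluster and the longest, at 3475 bases. HIST1H2B5L showed the same direction with no overlap, at 3.54, 3.98 and 4.36 FPKM in soleus and 9.22, 11.3 and 7.59 FPKM in pectoralis major (difference -1.05, SE 0.16, limma adjusted p = 0.000913). HIST1H2B7 was lower on average but overlapped, at 4.29, 5.70 and 6.44 FPKM in soleus and 5.41, 26.7 and 34.7 FPKM in pectoralis major. Pectoralis major library 1 stood at the soleus level (difference -1.53, SE 0.55, limma adjusted p = 0.0400). The difference was -2.29 without that library, and the call was lost when any of the other libraries was left out, at adjusted p of 0.0643 to 0.124, when the mitochondrial genes were left out (0.0569), without a filter (0.128) and with voom on fragments (0.0679). HIST1H2B8 was not called, at 5.78, 7.69 and 9.75 FPKM in soleus and 6.50, 12.1 and 16.3 FPKM in pectoralis major (difference -0.47, SE 0.30, limma adjusted p = 0.199). In both muscles library 1 was lowest and library 3 highest, and with the replicate block it was called lower (adjusted p = 0.0180), as it was without pectoralis major library 1 (0.0174) and under median-ratio scaling (0.0440).

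H2A genes of the replication-dependent kind were lower in level than H2B genes, with summed means of 11.1 ± 1.12 FPKM in soleus and 22.2 ± 2.47 FPKM in pectoralis major (SD, n = 3 each). Of 7 genes 4 were tested and 2 were called lower (background 17.4%). HIST1H2A4L2 held 1.71, 2.36 and 2.41 FPKM in soleus and 5.69, 6.08 and 6.38 FPKM in pectoralis major (difference -1.17, SE 0.14, limma adjusted p = 0.000248). HIST1H2A4L3 held 3.15, 4.16 and 5.08 FPKM in soleus and 7.77, 8.30 and 6.81 FPKM in pectoralis major (difference -0.76, SE 0.17, limma adjusted p = 0.00479). Neither gene overlapped between muscles, and neither had the wide spread among pectoralis major libraries seen for H2B. HIST1H2A4L4 overlapped, at 2.92, 2.92 and 2.57 FPKM in soleus and 5.15, 2.75 and 7.36 FPKM in pectoralis major (difference -0.60, SE 0.26, limma adjusted p = 0.0730). The replicate block brought a lower call (adjusted p = 0.0308), and so did leaving out pectoralis major library 2 (0.00379) and median-ratio scaling (0.0216). HIST1H2A4L1 was the only tested replication-dependent gene with a positive difference, 0.29 (SE 0.17, limma adjusted p = 0.162), and it lay just inside the filter at 1.60, 0.853 and 1.12 FPKM in soleus and 0.494, 1.11 and 0.760 FPKM in pectoralis major.

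Just outside the filter, HIST1H2A4 had 8, 1 and 15 fragments in soleus and 10, 36 and 34 in pectoralis major. HISTH2A4L1 had 7, 8 and 9 fragments in soleus and 0, 26 and 22 in pectoralis major. HIST1H2A3, further below it, had 1, 1 and 0 fragments in soleus and 0, 15 and 4 in pectoralis major. In all 3 the muscles overlapped.

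Variant genes carried most of the FPKM of the named H2A genes. The replication-dependent share was 6.74% ± 1.48 in soleus and 9.84% ± 0.775 in pectoralis major (SD, n = 3 each). Whether RNA selection or reads dropped between copies lowered this share is not known. H2AFZ encodes H2A.Z, a variant found beside the start sites of active genes. It was the variant gene called lower, at 66.03, 60.4 and 52.0 FPKM in soleus and 89.0, 91.3 and 124.9 FPKM in pectoralis major (difference -0.75, SE 0.16, limma adjusted p = 0.00492). Its groups did not overlap. H2AZ2, the other gene for this variant, did not follow it, at 81.9, 86.4 and 67.4 FPKM in soleus and 58.6, 84.9 and 70.8 FPKM in pectoralis major (difference 0.14, SE 0.17, limma adjusted p = 0.477; -0.24 under median-ratio scaling). The difference between these 2 genes was not tested.

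H2AFJ, known in mammals as a variant that accumulates in senescent cells, lies inside the main cluster and carries the synonym HIST1H2A9. It held 21.2, 16.6 and 13.9 FPKM in soleus and 13.8, 35.6 and 41.1 FPKM in pectoralis major. The overlap came from pectoralis major library 1, the lowest of all 6 (difference -0.66, SE 0.36, limma adjusted p = 0.148; -1.13 with adjusted p = 0.00253 without that library). It was also called lower under median-ratio scaling (-1.02, adjusted p = 0.0336). H2AFX, whose product is phosphorylated around DNA breaks, was low, at 1.81, 0.969 and 1.15 FPKM in soleus and 1.69, 1.31 and 2.04 FPKM in pectoralis major (difference -0.22, SE 0.17, limma adjusted p = 0.277), and was called lower under median-ratio scaling (-0.45, adjusted p = 0.0394). H2AFY2, a macroH2A gene, was under the filter with 53, 15 and 47 fragments in soleus and 9, 18 and 26 in pectoralis major.

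Almost all FPKM of the named H3 genes came from variant genes. How far RNA selection or reads dropped between near-identical copies affect this is not known. The 4 replication-dependent H3 genes were all under the filter and together summed to 0.195, 0.563 and 1.18 FPKM in soleus and 0.347, 0.716 and 0.975 FPKM in pectoralis major, or 0.205% ± 0.172 and 0.239% ± 0.119 of H3 FPKM (SD, n = 3 each). HIST2H3A, of highest level among them in pectoralis major, had 0, 0 and 7 fragments in soleus and 7, 13 and 26 in pectoralis major. HIST2H3D had 0, 22 and 36 fragments against 10, 21 and 17. HIST1H3A had 4, 1 and 6 fragments against 0, 1 and 0, and HIST1H3H had 0, 4 and 4 against 0 in each pectoralis major library. Without the filter none of the 4 was called, at limma adjusted p of 0.0755 (HIST2H3A) to 0.930 (HIST2H3D). In FPKM every soleus library of HIST2H3A lay below every pectoralis major library.

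H3F3C and H3F3B, of the H3.3 family that is laid down in chromatin outside of DNA replication, were the named histone genes of highest mean FPKM in soleus, while in pectoralis major H2AFZ stood above H3F3B. H3F3C held 223.7, 213.2 and 182.6 FPKM in soleus and 184.1, 218.4 and 178.3 FPKM in pectoralis major (difference 0.09, SE 0.14, limma adjusted p = 0.576; -0.29 under median-ratio scaling). H3F3B held 126.1, 122.9 and 116.8 FPKM in soleus and 83.3, 102.4 and 87.4 FPKM in pectoralis major (difference 0.42, SE 0.12, limma adjusted p = 0.0181). Every soleus library lay above every pectoralis major library, against 45.0% of all tested genes. The call was lost when soleus library 1 (adjusted p = 0.0648), soleus library 2 (0.0541), pectoralis major library 1 (0.0515) or pectoralis major library 3 (0.0521) was left out. Under median-ratio scaling the difference was 0.04. CENPA, the H3 variant of centromeres, had 0, 13 and 0 fragments in soleus and 1, 0 and 0 in pectoralis major.

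H4, the histone with the fewest known variants, was represented by 7 replication-dependent genes. Of these, 5 were tested and 3 called lower (background 17.4%), with a median difference of -0.97. HIST1H4D held 29.5, 35.5 and 29.5 FPKM in soleus and 48.3, 76.8 and 80.3 FPKM in pectoralis major (difference -1.07, SE 0.20, limma adjusted p = 0.00239). HIST1H46L6 held 1.89, 1.34 and 3.91 FPKM in soleus and 7.53, 11.2 and 14.8 FPKM in pectoralis major (difference -1.87, SE 0.30, limma adjusted p = 0.00117). Both were without overlap. HIST2H4B was low, at 1.30, 0.522 and 0.713 FPKM in soleus and 1.33, 2.15 and 3.199 FPKM in pectoralis major (difference -0.79, SE 0.23, limma adjusted p = 0.0178). Its muscles barely separated, and the call was lost without soleus library 2 (adjusted p = 0.0700) or soleus library 3 (0.0564), and without a filter (0.0688).

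The 2 tested H4 genes that were not called differed more by library number than by muscle. HIST1H46L2 held 7.53, 30.1 and 30.3 FPKM in soleus and 12.1, 46.6 and 52.0 FPKM in pectoralis major, low in library 1 of both (difference -0.67, SE 0.62, limma adjusted p = 0.383). HIST1H4I showed the reverse, high in library 1 of both, at 9.68, 1.80 and 3.53 FPKM in soleus and 13.9, 7.38 and 7.13 FPKM in pectoralis major (difference -0.97, SE 0.45, limma adjusted p = 0.0922). In each same-numbered pair soleus was the lower, and with the replicate block both were called lower, at adjusted p of 0.00104 for HIST1H46L2 and 0.00189 for HIST1H4I. HIST1H4I was also called lower without soleus library 1 (0.00924) and under median-ratio scaling (0.0404). The difference of HIST1H46L2 was -0.04 without soleus library 1 and -1.31 without pectoralis major library 1. HIST1H46 had 20, 8 and 2 fragments in soleus against 11, 16 and 11, and HIST1H4B had 0, 7 and 10 against 6, 4 and 18, both under the filter.

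**Figure D3:**
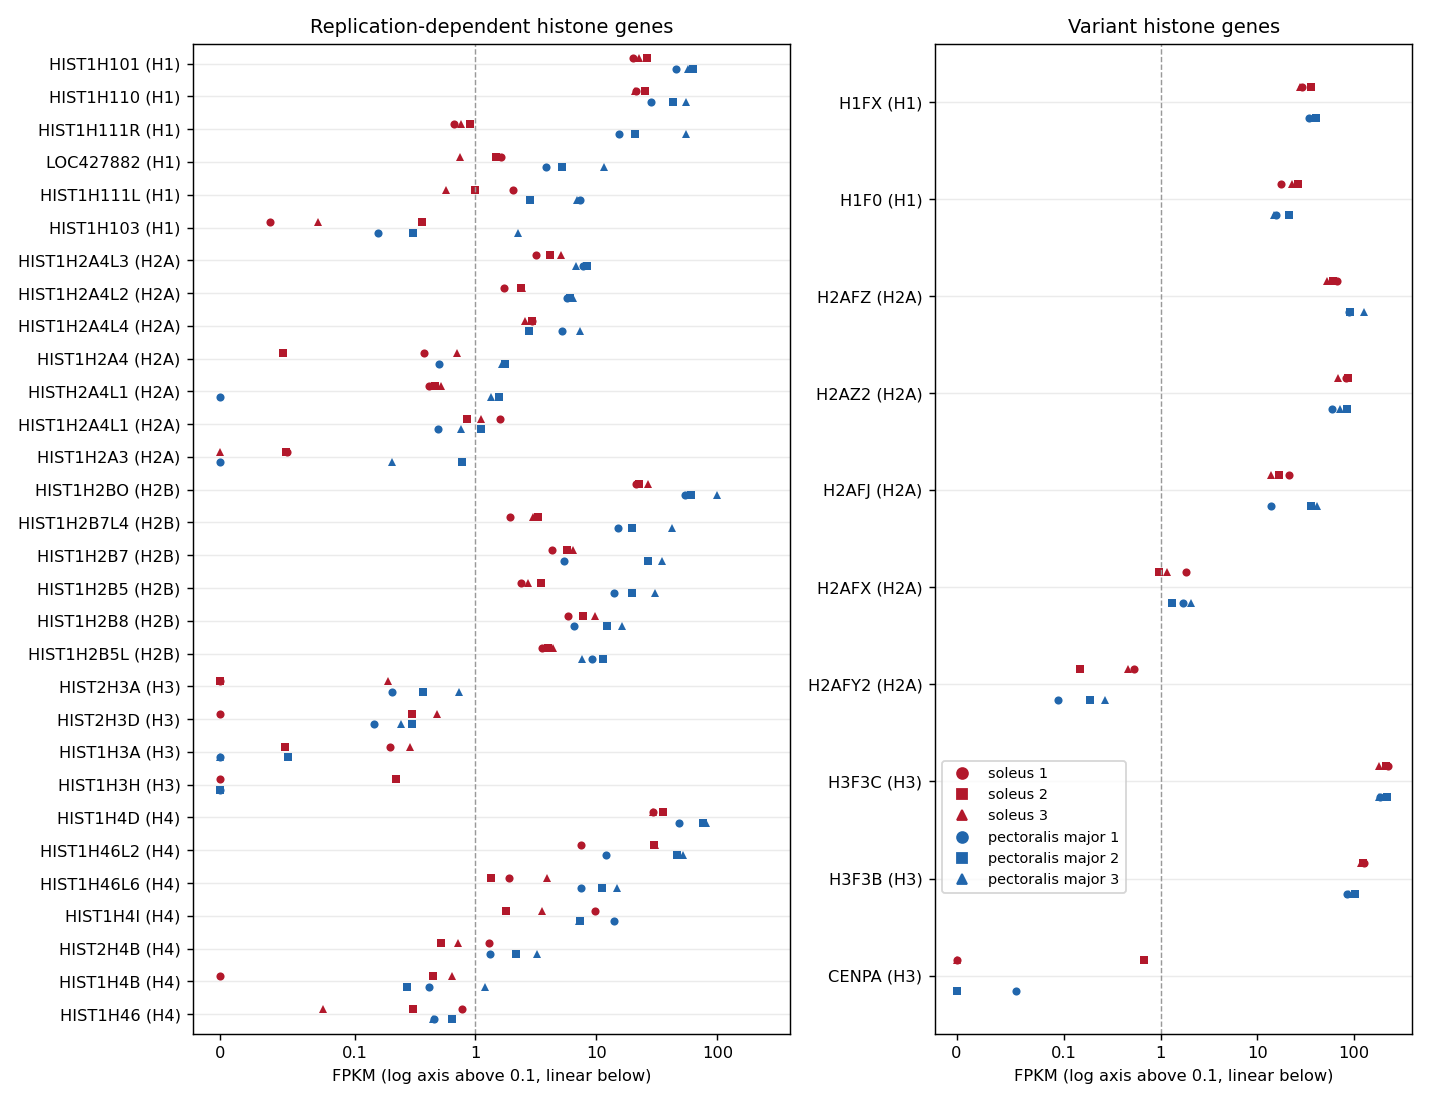
FPKM of each named histone gene in each library (log axis above 0.1, linear below), with replication-dependent genes on the left and variant genes on the right; the dashed line is the 1 FPKM minimum of the filter. H2B genes and HIST1H111R are spread to the right in pectoralis major, the H3 genes of the replication-dependent kind lie under the minimum in every library, and H3F3C and H3F3B lie above 80 FPKM in every library.

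Loci without a histone name were called lower for 5 of 6 (background 17.4%), with a median difference of -0.96. With the mitochondrial genes left out 3 of 6 were called lower (background 11.6%). They can be tied to a histone type only through sharing all their gene ontology terms with named members. LOC100857439 and LOC121106438 carry the terms of HIST1H3A, HIST1H3H and HIST2H3A. Both reached the filter only through the pectoralis major libraries, so a lower level in soleus was a condition of their being tested. LOC121106438 held 0.511, 0.504 and 0.252 FPKM in soleus and 2.66, 2.39 and 3.02 FPKM in pectoralis major (difference -1.38, SE 0.13, limma adjusted p = 6.97e-05). LOC100857439 held 0.281, 0.369 and 0 FPKM in soleus and 2.33, 1.60 and 2.67 FPKM in pectoralis major (difference -1.39, SE 0.17, limma adjusted p = 0.000267). The levels of both in pectoralis major were above the sum of the 4 named replication-dependent H3 genes.

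LOC121106462, with the terms of the H2B genes, held 1.98, 1.76 and 2.65 FPKM in soleus and 3.94, 3.51 and 13.1 FPKM in pectoralis major (difference -1.13, SE 0.39, limma adjusted p = 0.0338). Its ratio of mean FPKM was 3.22, or 1.75 without pectoralis major library 3, and the call was lost without soleus library 1 (adjusted p = 0.0919) or soleus library 2 (0.0951), without a filter (0.111) and with the mitochondrial genes left out (0.0530). LOC121106538, with the terms of the H4 genes, was low in library 3 of both muscles, at 1.33, 1.88 and 0.313 FPKM in soleus and 4.04, 3.56 and 0.988 FPKM in pectoralis major (difference -0.79, SE 0.38, limma adjusted p = 0.108). With the replicate block it was called lower (adjusted p = 0.000987), as it was without pectoralis major library 3 (0.0123).

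The other 2 loci share terms with variant genes and were of high level. LOC101751709, with the terms of H2AZ2, held 44.8, 54.4 and 41.4 FPKM in soleus and 75.0, 82.7 and 71.9 FPKM in pectoralis major (difference -0.70, SE 0.14, limma adjusted p = 0.00306). LOC100859629, with the terms of H3F3B and H3F3C, held 103.1, 98.6 and 83.0 FPKM in soleus and 142.0, 121.4 and 112.2 FPKM in pectoralis major (difference -0.40, SE 0.14, limma adjusted p = 0.0392). Both were without overlap between muscles, while H3F3B differed in the other direction. The call of LOC100859629 was lost in 5 of the 6 fits without 1 library, at adjusted p of 0.0560 to 0.149, without a filter (0.0621) and with the mitochondrial genes left out (-0.17, adjusted p = 0.280).

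Of the 6 members that are not histones, SOS2, an activator of Ras that carries the nucleosome term in the table, was lower in soleus at 14.2, 12.9 and 14.9 FPKM against 20.8, 23.7 and 22.6 FPKM (difference -0.64, SE 0.12, limma adjusted p = 0.00273). KDM1B, a demethylase of histone H3, stood at 1.48, 1.19 and 1.54 FPKM in soleus and 1.91, 1.90 and 2.35 FPKM in pectoralis major (difference -0.35, SE 0.12, limma adjusted p = 0.0390), and the call was lost in all 6 fits without 1 library, at adjusted p of 0.0508 to 0.148, without a filter (0.0804) and with the mitochondrial genes left out (0.181). HP1BP3, a heterochromatin protein related to linker histones, was not called at 28.0, 25.3 and 22.4 FPKM against 27.5, 37.8 and 29.4 FPKM (difference -0.30, SE 0.16, limma adjusted p = 0.126), and was called lower under median-ratio scaling (-0.68, adjusted p = 0.00474). SHPRH, a helicase and ubiquitin ligase of the response to stalled replication, was under the filter with 289, 243 and 227 fragments in soleus against 136, 173 and 132. SLF1, a factor of the same response that binds the SMC5/6 complex, had 131, 139 and 134 fragments against 67, 91 and 87. Both lay above pectoralis major in every soleus library, and without the filter limma called both higher, at adjusted p of 0.0429 for SHPRH and 0.0259 for SLF1. SHPRH was also called higher with the mitochondrial genes left out (0.47, adjusted p = 0.00622). LOC124417796, a non-coding gene that shares the terms of KDM1B, had 0, 2 and 0 fragments in soleus and 2, 7 and 3 in pectoralis major.

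In the gene order of the RefSeq table for assembly GRCg7b, 34 members lie together between WBP11 and APOLD1. They are 29 of the 30 replication-dependent members, H2AFJ, and 4 of the unnamed loci. The build in the submitters' processing notes is another, so the order is used and no coordinates are given. Of the 34, 24 were tested and 17 were called lower (background 17.4%), with no member called higher (background 40.0%) and a median difference of -1.15. Calls were denser toward APOLD1. Of the last 12 genes, from HIST1H46L6 on, all were tested and 11 were called. Of the 22 before them 12 were tested and 6 were called. HIST1H111R, LOC100857439 and LOC121106438, which reached the filter only through pectoralis major, lie among the last 8, so their lower level was a condition of their test. The last 8 genes before APOLD1, like the last 12 a stretch chosen after its values were seen and so given no test, run from HIST1H111L to HIST1H111R and include H1, H2A and H2B genes next to each other. Their FPKM summed to 13.9, 16.6 and 14.9 in soleus and 69.8, 78.1 and 153.7 in pectoralis major. HIST1H111R alone held 15.3, 20.8 and 54.7 FPKM of the latter. The ratio of means was 6.63, against 2.62 for the whole cluster, which includes these 8 genes. In some adjacent H2A and H2B pairs the differences were unlike and in another they were close. HIST1H2B5 stood at -2.48 beside HIST1H2A4L3 at -0.76, and HIST1H2B7L4 at -2.72 beside HIST1H2A4L4 at -0.60. HIST1H2BO stood at -1.51 beside HIST1H2A4L2 at -1.17, but the annotated spans of this last pair overlap and their reads may not be separable. The differences between neighbours were not tested. Histone genes of a type are near-identical copies, and reads shared by copies may have been split or dropped in counting, so values of single genes are less certain than sums over a type.

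**Figure D4:**
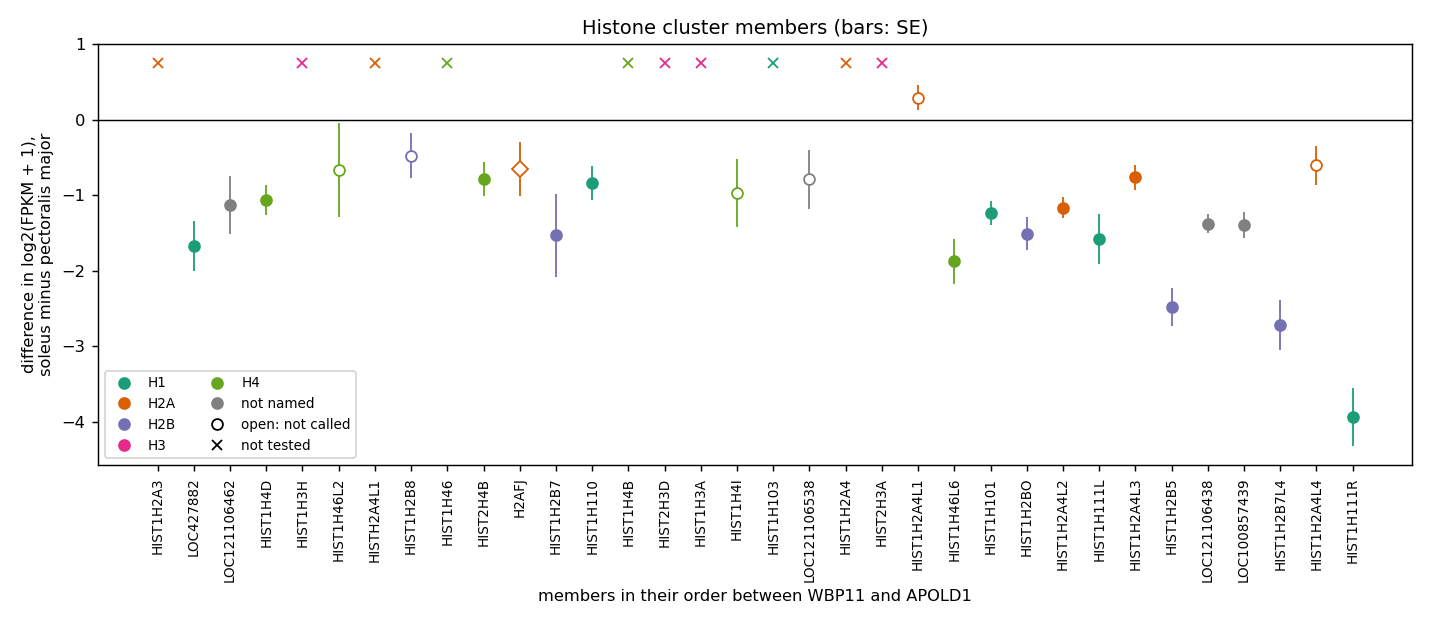
Difference in log2(FPKM + 1), soleus minus pectoralis major, with bars of 1 SE, for the 34 members between WBP11 and APOLD1 in gene order, coloured by histone type; filled points were called lower and the diamond is H2AFJ. Crosses at the top mark the 10 members under the filter. The lowest points, HIST1H2B5, HIST1H2B7L4 and HIST1H111R, lie at the right end.

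Pectoralis major libraries differed among themselves in the same order for many replication-dependent genes. Library 3 was the highest of the 3 pectoralis major libraries in 14 of the 20 tested replication-dependent members, against 38.8% of all tested genes, and library 1 was the lowest in 15 of the 20, against 48.6% of all tested genes. Leaving out pectoralis major library 3 moved the log2 ratio of the replication-dependent sums from -1.42 to -1.17, and leaving out library 1 moved it to -1.63. Of the cell type marker lists, the fibroblast sum stood out in the same library, at 209, 231 and 399 FPKM in pectoralis major against 393, 269 and 301 FPKM in soleus. Most of it in that library came from the collagen genes COL1A1 (67.0 FPKM), COL1A2 (68.0 FPKM) and COL3A1 (137.3 FPKM). PDGFRA and DPT were also highest there among pectoralis major libraries, while DCN was highest in library 2 and LUM lowest in library 3. The leukocyte sum was also highest in pectoralis major library 3, at 544, 525 and 675 FPKM, most of it from CD74 (477, 474 and 589 FPKM). The part of these cells in the histone levels was not tested.

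Markers of cells other than muscle fibres were mostly higher in soleus, where the replication-dependent histones were lower. Endothelial markers were called higher in soleus for 10 of 10 tested genes, leukocyte for 9 of 9, adipocyte for 6 of 6, Schwann cell for 6 of 6, smooth muscle for 5 of 5, satellite cell for 4 of 6 and fibroblast for 3 of 7, and none was called lower, where 40.0% of all tested genes were called higher. Of the 5 tested red cell markers none was called. Under median-ratio scaling the counts were 6 endothelial, 7 leukocyte, 6 adipocyte, 4 Schwann cell, 4 smooth muscle, 3 satellite cell, 0 fibroblast and 0 red cell genes, again with none lower (background 20.6% higher). With the mitochondrial genes left out 5 satellite cell, 4 fibroblast and 1 red cell genes were called higher (background 52.8%). The counts of the other lists were then as deposited, with none lower. The sums of the endothelial list were 183 to 224 FPKM in soleus and 95.3 to 107 FPKM in pectoralis major, and those of the leukocyte list 1024 to 1128 FPKM and 525 to 675 FPKM. The satellite cell list summed to 57.9 to 70.6 FPKM in soleus and 31.8 to 36.1 FPKM in pectoralis major. The part of these cells in the histone differences was not tested.

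Genes of DNA synthesis and the cell cycle, only some of which act in the phase when replication-dependent histones are made, had calls in both directions as deposited. Of 25 listed genes found, 11 were tested, and 3 were called higher in soleus, 2 lower and 6 neither (background 40.0% higher and 17.4% lower). The median difference was 0.11 (0.26 over all tested genes). Under median-ratio scaling 10 were tested, with 1 higher and 4 lower (background 20.6% and 30.1%). With the mitochondrial genes left out 13 were tested, with 6 higher and none lower (background 52.8% and 11.6%). With the replicate block CCNA2, a cyclin of DNA synthesis, was also called lower (-0.38, adjusted p = 0.0353). The difference between this list and the histones was not tested. MKI67, a marker of dividing cells, was at 0.311, 0.277 and 0.236 FPKM in soleus and 0.202, 0.0659 and 0.107 FPKM in pectoralis major, under the filter. TOP2A and RRM2, which act in chromosome separation and nucleotide supply, were also under the filter, at no more than 0.478 and 0.882 FPKM in any library. PCNA, the sliding clamp of the DNA polymerases, held 28.9, 24.8 and 23.9 FPKM in soleus and 25.3, 23.5 and 22.8 FPKM in pectoralis major (difference 0.11, SE 0.13, limma adjusted p = 0.485). Of the MCM helicase, MCM2 was called higher (0.40, SE 0.12, limma adjusted p = 0.0208) while MCM4 (-0.41) and MCM5 (-0.48) were called lower, and each of these calls was lost in at least 5 alternative fits. CDK2, a kinase of the start of DNA synthesis, showed the largest difference of the list (1.06, SE 0.16, limma adjusted p = 0.000785), and it kept its call in every fit.

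The lists that serve histone supply and exchange had calls in both directions as deposited. Over all tested genes 40.0% were called higher and 17.4% lower, with a median of 0.26. Among genes listed under the production of histone messages, 10 were tested, 1 was higher, 1 was lower and the median was 0.05. The higher one was LSM10, of the particle that cuts the stem-loop end (1.07, SE 0.39, limma adjusted p = 0.0444, lost in 7 alternatives), and the lower was FAF1 (-0.48, SE 0.14, limma adjusted p = 0.0195). The call of FAF1 was lost with the mitochondrial genes left out. It was also lost without soleus library 2, soleus library 3 or pectoralis major library 3. With the replicate block NCBP1, of the cap-binding complex, was also called lower (-0.48, adjusted p = 0.0227). SLBP, which binds the stem-loop of replication-dependent messages, was under the filter, at 0.460, 0.340 and 0.425 FPKM in soleus and 0.442, 0.134 and 0.194 FPKM in pectoralis major. UPF1, of highest level in this list, was not called (-0.06, SE 0.13, limma adjusted p = 0.733).

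Of 17 tested genes for histone chaperones and deposition, 6 were higher and 3 lower, with a median of 0.28. These counts were near the shares over all tested genes, 40.0% higher and 17.4% lower with a median of 0.26. NAP1L1 and NAP1L4, both chaperones of H2A and H2B, differed in opposite directions (1.20, SE 0.19, limma adjusted p = 0.00100, and -0.78, SE 0.17, limma adjusted p = 0.00527). NAP1L4 was the gene of higher level, at 41.7 ± 1.95 FPKM in soleus and 74.0 ± 18.8 FPKM in pectoralis major (SD, n = 3 each). CABIN1, a partner of the H3.3 chaperone HIRA, was higher (0.75) and SUPT6H, a histone chaperone of transcription, lower (-0.71). With the replicate block ASF1A, a chaperone of H3 and H4, was also called higher (0.33, adjusted p = 0.0485).

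Of 11 tested genes of complexes that exchange variants such as H2A.Z, 3 were higher and 2 lower (background 40.0% and 17.4%), with a median of 0.16. The gene of highest level in this list was VPS72, which binds H2A.Z. It differed in the same direction as H2AFZ, at 111.3, 116.0 and 94.6 FPKM in soleus and 139.3, 162.1 and 197.6 FPKM in pectoralis major (-0.62, SE 0.16, limma adjusted p = 0.00957). Of the others, CHD2 (0.49) and EP400 (0.44) were higher and RUVBL1 (-0.36) was lower, each with a call that some alternative fits lost. TRRAP was called higher (0.28, limma adjusted p = 0.0491), but not with the replicate block (adjusted p = 0.0651). The call of TRRAP was also lost with a pseudocount of 0.1, without a filter, under median-ratio scaling and in every fit that left out a library. Of 11 tested linker and nucleosome binding proteins 1 was higher and 3 lower (background 40.0% and 17.4%), and the median was -0.12. HMGB2, a DNA-bending protein, was higher (0.97, SE 0.18, limma adjusted p = 0.00205), and CBX1 (-0.58), HMGN1 (-0.54) and CTCF (-0.45) were lower. Only the call of CBX1 among these 3 held in every fit. Scaling moved the splits of these lists. Of the 18 chaperone genes tested under each, 6 were lower and 3 higher under median-ratio scaling (background 30.1% and 20.6%). With the mitochondrial genes left out 2 were lower and 10 higher (background 11.6% and 52.8%). Of the genes for histone messages, 5 of 10 tested were lower and none higher under median-ratio scaling. With the mitochondrial genes left out 4 of 11 were higher and none lower. Of the 11 variant exchange genes, 2 were lower and none higher under the first scaling, and 1 lower and 5 higher under the second. Of the 11 nucleosome binding genes, 5 were lower and 1 higher, then 1 lower and 2 higher.

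**Figure D5:**
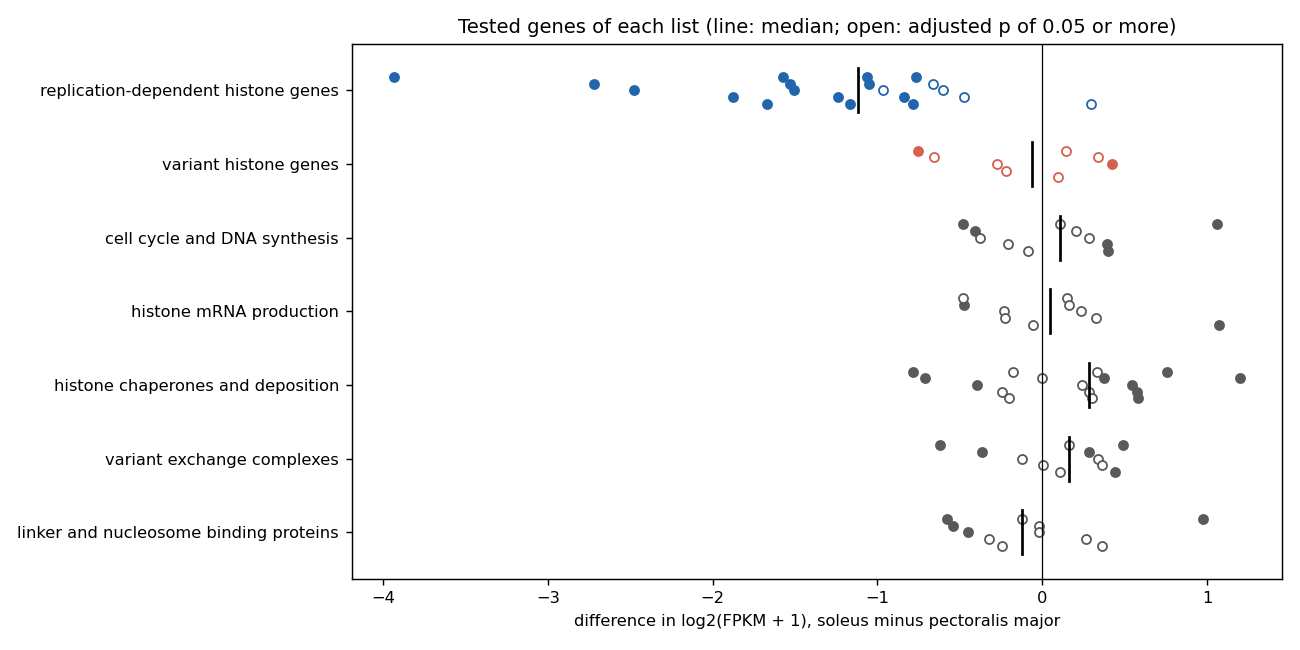
Difference in log2(FPKM + 1), soleus minus pectoralis major, of each tested gene in the 2 kinds of histone members and in 5 lists of genes for the cell cycle, histone messages, chaperones, variant exchange and nucleosome binding; black lines are medians and filled points have an adjusted p under 0.05. Replication-dependent histone genes have a median of -1.12, and the other lists have medians from -0.12 to 0.28.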

How the data were processed

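The authors deposited RNA sequencing values as 1 FPKM table that covers the 6 libraries and annotates each gene with its symbol, gene number and ontology terms, per the file headers. Per the submitters' processing notes, the tools were HISAT2, HTSeq, Cufflinks and R 3.2.0 and the build was GRCg6a. Not given in the sources used here are the use of strand in counting, the handling of multiply mapped reads and any poly(A) selection. The FPKM values go in steps of 1 fragment, and 100.0% of the 94897 values above 0 were whole fragments within a relative tolerance of 1e-06. This gave fragment numbers and library totals, whose counting error alone limits the low members.

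The members and the gene lists were chosen with earlier results of these data known. All tests were fitted on the whole table, by limma-trend (limma 3.58.1 under R 4.3.3, two-sided) applied to log2(FPKM + 1) of genes with at least 1 FPKM in at least 3 of the 6 libraries. Gene lists are given by counts and medians, with no set test. Tables were handled in Python 3.11.15 using pandas 2.3.3 and numpy 2.4.6, and plots were made in matplotlib 3.10.9. The limma script was run on simulated data with the same dispersion for every gene and no pairing. That run does not show how limma behaves on the histone members. Alternatives were a pseudocount of 0.1, no filter, a mean of at least 5 FPKM, median-ratio scaling, totals without mitochondrially encoded genes, voom on fragments, a replicate block and each library left out.

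The replicate numbers of the labels were checked for pairing. Deviations from the muscle means correlated at 0.398, 0.445 and 0.367 between same-numbered libraries and at -0.128 to -0.301 between others, so the numbers pair the libraries, and the value with the replicate block is given where it changes the call of a member or of a gene in a companion list. What the pairs share is not stated in the labels.

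Every tested member is named. Members under the filter were named by a mean of at least 0.3 FPKM in either muscle or the highest level of their type and kind, and the remaining ones are named so that each member is accounted for. From each companion list up to 4 called genes of largest difference and the gene of highest mean FPKM are named, with MKI67, TOP2A, PCNA, MCM2 and RRM2, and SLBP, CCNA2, NCBP1, ASF1A and TRRAP were added after their values were seen. The gene H2AFY carries the number of the nucleosome term but not its text in the table and is not a member.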

Additional observations from a re-analysis of the deposited data

How the results depend on the processing

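Of the 24 called members, 18 had the same call in every one of the 13 alternative fits that tested them, and no called member changed direction. These 18 include HIST1H111R, LOC100857439 and LOC121106438, which reached the main filter only through pectoralis major. For them a lower soleus level was a condition of that filter, and no fit that left out a pectoralis major library tested them. Over the 456 pairs of a tested member and an alternative, 399 had the same direction and call, 35 lost the call, 19 gained one and 3 turned direction. The 3 were uncalled variant genes under median-ratio scaling, H1F0 at -0.03, H2AZ2 at -0.24 and H3F3C at -0.29. The number of members called lower, 23, was 15 with a mean of at least 5 FPKM, where fewer members were tested, and 18 to 30 otherwise. The number called higher, 1, was 3 without a filter, 0 under median-ratio scaling, 3 with the mitochondrial genes left out, 2 with the replicate block, and 0 to 1 with a library left out. The replicate block, used as pairing of same-numbered libraries, gave 28 members lower and 2 higher and changed no member's call beyond the 6 named in the report. The count of all genes called higher, 3844, was 1639 with a mean of at least 5 FPKM, 1952 under median-ratio scaling and 2495 to 3608 with a library left out, and the count called lower, 1670, was 2854 under median-ratio scaling. The log2 ratio of summed replication-dependent FPKM, -1.42, was -1.79 under median-ratio scaling and -1.19 with the mitochondrial genes left out. That of the variant sum, -0.02, was -0.40 under median-ratio scaling and 0.21 with the mitochondrial genes left out. Without HIST1H2B5L the replication-dependent sum gave -1.42, with H2AFJ counted as replication-dependent the variant sum gave 0.02, and with members taken by the number of the nucleosome term 23 were lower and 1 higher (alternatives chosen after seeing the data). Depth limits the histone members under the filter, which had at most 59 fragments in any library.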
